A study of Homo sapiens with 12 samples.

Results

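The ADAM, ADAMTS and ADAMTSL genes were followed in Ewing sarcoma cells in which c-Jun and c-Fos, the canonical subunits of the AP-1 transcription factor, were switched on together. Members were picked by gene symbol, as every symbol made of ADAM, ADAMTS or ADAMTSL and a number, and the pseudogenes ADAM5 and ADAM6 were left out. The rule gave 44 of the 58721 genes in the count table, 20 ADAM, 19 ADAMTS and 5 ADAMTSL genes. Of these, 34 had enough counts to be tested (13 ADAM, 17 ADAMTS and 4 ADAMTSL), among 21013 genes tested in all.

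The libraries came from EW8 and TC71, established Ewing sarcoma cell lines, a bone and soft tissue tumor driven by the EWS-FLI1 fusion. Both lines carried a lentiviral Tet-On 3G activator under an EF1 alpha promoter and a construct with c-Jun and c-Fos joined by a self-cleaving peptide sequence under a doxycycline-responsive promoter, and infected cells had been selected with geneticin and puromycin. Cells of each line were given DMSO alone (vehicle, genotype WT in the labels although the constructs were present) or doxycycline at 2000 ng/ml (genotype AP1_overexpression) for 72 h. Each of the 4 groups had 3 libraries. Doxycycline-treated cells without the transgenes were not analysed here, so doxycycline itself and the induced proteins cannot be told apart as the source of a change.

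ADAM proteins are membrane-anchored metalloproteinases that cut other membrane proteins close to the cell surface and so release growth factors, cytokines and receptor ectodomains, although several members lack the catalytic zinc site and act as adhesion or synaptic receptors. ADAMTS proteins are secreted relatives with thrombospondin type 1 repeats that cut matrix proteins such as aggrecan, versican, procollagens and von Willebrand factor. ADAMTSL proteins share the repeats but have no protease domain, and several bind the fibrillin microfibrils of the matrix.

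Total counts ran from 42860665 to 60853649 per library, with both mates of a read pair counted. Levels are given in CPM, the count relative to the scaled library size, and as RPKM (CPM per kilobase of exon) where genes are compared with each other. A group was taken as being at the floor when none of its libraries exceeded 6 counts, or 3 read pairs (0.0966 to 0.145 CPM, depending on the library), which covers counting error only, and a fold given as at least a value sets the mean of the other group against the mean floor. A gene was called at a Benjamini-Hochberg adjusted p under 0.05 in edgeR's quasi-likelihood test with an absolute log2 fold change over 1. The induced genes were checked first. JUN measured 21.6 ± 2.61 CPM in EW8 under vehicle, against 474 ± 44.8 CPM with doxycycline, and 20.7 ± 4.01 CPM against 756 ± 54.6 CPM in TC71 (mean ± SD, n = 3). FOS measured 36.8 ± 0.814 CPM in EW8 under vehicle, against 1078 ± 72 CPM with doxycycline, and 11.7 ± 0.426 CPM against 1580 ± 120 CPM in TC71. Every doxycycline library was above every vehicle library of its line for both genes, with log2 fold changes of 4.46 and 5.19 for JUN and 4.87 and 7.08 for FOS. FOS was induced more in TC71 than in EW8 (difference of the log2 fold changes 2.21, SE 0.09, edgeR adjusted p = 6.41e-12), and transgene reads cannot be told apart from reads of the endogenous genes.

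Ewing sarcoma markers were present in every group (7 of 7 markers over the floor, summed level 983 to 1681 CPM, most of it CD99). With doxycycline PAX7 was called lower in both lines (log2 fold changes -1.25 and -1.27) and LIPI in EW8 (-1.40). Some genes known as markers of other cells moved with doxycycline. The summed level of 6 fibroblast markers went from 71.1 to 79.9 CPM to 83.4 to 88.7 CPM in EW8 and from 55.4 to 79.1 CPM to 129 to 142 CPM in TC71. COL1A1 was at a mean of 26.1 CPM in TC71 with vehicle and 92.8 CPM with doxycycline, while the fibroblast markers LUM (log2 fold change -2.36 in EW8 and -1.66 in TC71) and DCN (-1.73 in TC71) were called lower. The 3 endothelial markers summed to 7.22 to 8.48 CPM with vehicle and 36.1 to 43.7 CPM with doxycycline in EW8, and to at most 0.0388 CPM and 3.75 to 4.61 CPM in TC71, nearly all of it PECAM1. The 3 epithelial markers summed to at most 1.19 CPM in 3 of the groups and to 11.4 to 12.6 CPM in TC71 with doxycycline, nearly all of it EPCAM. Of the 4 leukocyte markers, CD3E was at or near 0 in all 12 libraries, while PTPRC was at a mean of 65.9 CPM in EW8 with vehicle and 74.9 CPM with doxycycline and near 0 in TC71. The part of these markers in the results for the protease genes was not tested, and in bulk RNA more cells of a type and more RNA per cell cannot be told apart.

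With doxycycline, members of all 3 families were called higher, while the calls of lower members were near the share over all genes. In EW8, 11 of the 34 tested members were called higher, against 11.4% of all genes tested, and 1 was called lower, against 3.38%. In TC71, 12 were called higher, against 12.3% of all genes, and 0 lower, against 3.67%. DESeq2 also called 0 lower in TC71, and 3 members (ADAM11, ADAM22 and ADAMTS10) were lower at an unadjusted p under 0.05 in edgeR. A looser rule, adjusted p under 0.05 in edgeR with no fold limit, gave 15 higher and 3 lower in EW8 (21.9% and 22% of all genes) and 16 higher and 3 lower in TC71 (25.1% and 20.4%). The 6 members called higher in both lines were ADAM9, ADAM19, ADAM32, ADAMTS6, ADAMTS14 and ADAMTS16, where 7.44% of all genes were called higher in both. The 5 called higher in EW8 alone were ADAM12, ADAM28, ADAMTS4, ADAMTS9 and ADAMTS15, where 3.99% of all genes were called higher in EW8 alone, and the 6 in TC71 alone were ADAM21, ADAM23, ADAMTS2, ADAMTS7, ADAMTSL2 and ADAMTSL3, where the share was 4.85%. ADAM22 was the member called lower, in EW8. Of the tested members, 7 (ADAM21, ADAM28, ADAM32, ADAMTS5, ADAMTS9, ADAMTS14 and ADAMTS16) would not have passed the count filter on the vehicle libraries alone, so their doxycycline libraries decided that they were tested. With the filter set on the vehicle libraries alone, an alternative chosen after the values were seen, 27 members were tested, 7 of them were called higher in EW8, ADAMTS7 included, against 9.2% of all genes then tested, and 8 in TC71, against 9.92%. ADAM32, ADAMTS14 and ADAMTS16, among the members called higher in both lines, were not tested with that filter. The share of all genes called higher in both lines was not computed for it.

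**Figure D1:**
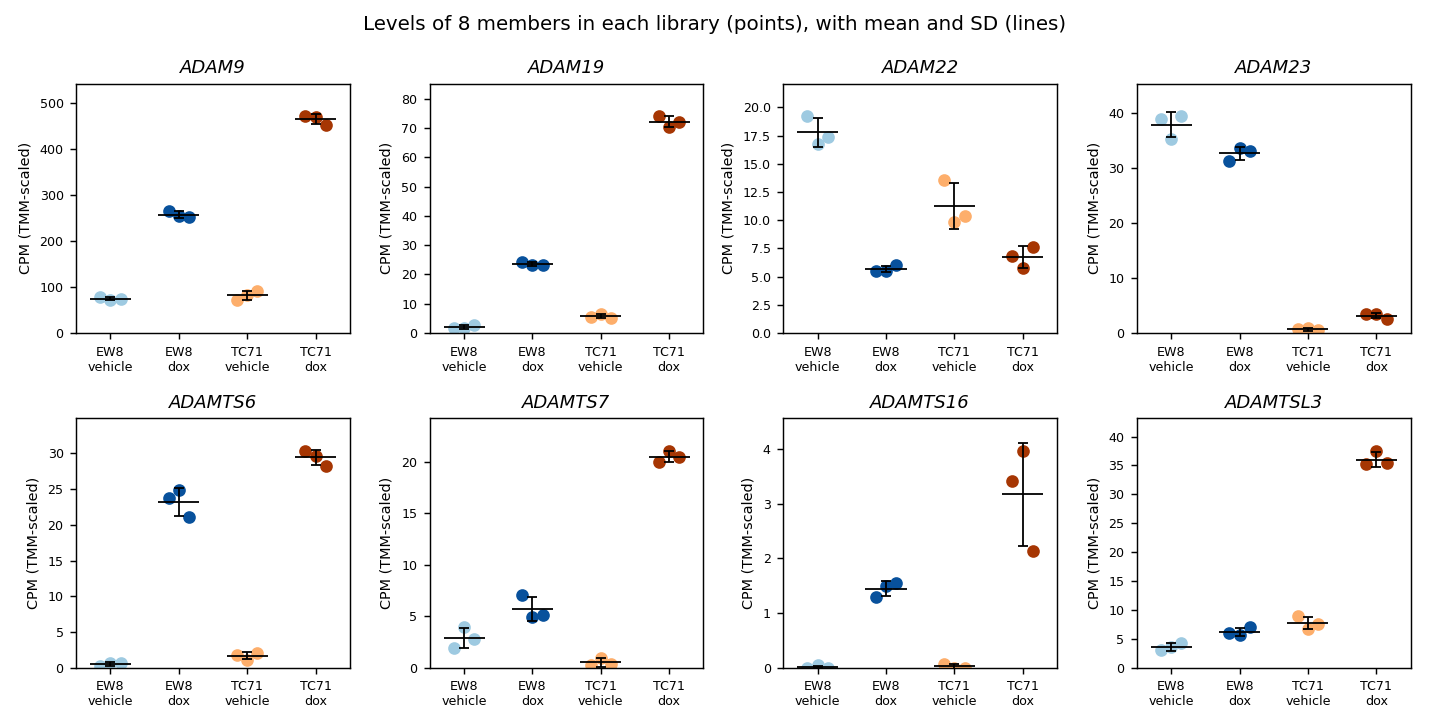
Level in CPM (vertical, linear axis from 0) of ADAM9, ADAM19, ADAM22, ADAM23, ADAMTS6, ADAMTS7, ADAMTS16 and ADAMTSL3 in the 4 groups (horizontal; dox, doxycycline), with 1 point per library and lines for the mean and SD of 3 libraries. ADAM9, ADAM19, ADAMTS6 and ADAMTS16 are higher with doxycycline in both lines, ADAM22 is lower in both, and ADAM23 stays far below EW8 in TC71 although it rises there.

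By family, 5 of 13 tested ADAM members were called higher in each line and 1 lower in EW8. Of 17 ADAMTS members, 6 were called higher in EW8 and 5 in TC71. Over all genes tested, 11.4% were called higher and 3.38% lower in EW8, and 12.3% and 3.67% in TC71. Of the tested members, 3 ADAM and 4 ADAMTS genes passed the count filter only through their doxycycline libraries. With the filter on the vehicle libraries alone, 3 of 10 ADAM and 3 of 13 ADAMTS members were called in TC71. In that setting 9.92% of all genes were called higher in TC71. Of 4 ADAMTSL members, 0 were called higher in EW8 and 2 in TC71, where both ADAMTSL2 groups were at the floor. DESeq2 also called 0 ADAMTSL members in EW8, where 2 were higher at an unadjusted p under 0.05 in edgeR. The median log2 fold change of the tested ADAM members was 0.80 in EW8 and 0.69 in TC71, that of the ADAMTS members 0.85 and 0.23, and that of the ADAMTSL members 0.75 and 1.32, beside -0.03 and 0.00 over all genes tested. With members at the floor in a group set to their bound, the TC71 medians fell to 0 for ADAMTS and 0.41 for ADAMTSL and stayed at 0.69 for ADAM, and the EW8 medians were 0.80, 0.81 and 0.75. The medians moved with the genes and libraries used. That of ADAM in EW8 was 0.20 with no filter on low counts and 0.11 with at least 10 counts in every library, that of ADAMTS in TC71 ran from 0 to 0.57 when 1 library was left out (0.57 without TC71 doxycycline replicate 1), and that of ADAMTSL in TC71 was 0.40 with no filter and 2.30 without TC71 vehicle replicate 2. These are descriptions of a few members each, and no test was made of a family.

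**Figure D2:**
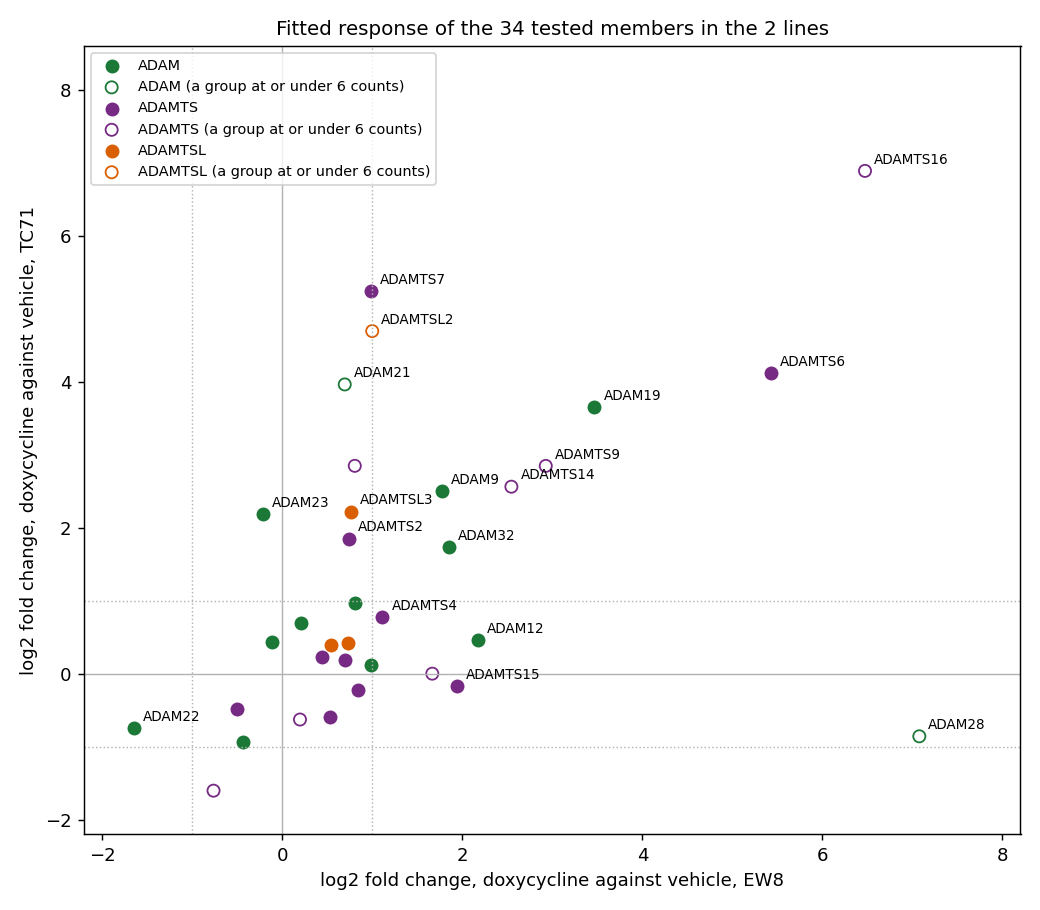
Log2 fold change of each of the 34 tested members in EW8 (horizontal) against TC71 (vertical), colored by family, with open circles where a group was at the floor in either line and dotted lines at the fold limit. ADAM19, ADAM9, ADAMTS6 and ADAMTS16 lie toward the upper right, ADAMTS7, ADAM23 and ADAMTSL3 rise along the TC71 axis, and ADAM28 and ADAMTS15 lie out along the EW8 axis.

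Of the catalytic ADAM proteins of somatic tissues, ADAM9 and ADAM19 rose in both lines. ADAM19, a membrane protease known to shed neuregulins, lies at chr5:157395534-157575775, minus strand (ENSG00000135074.15). It was at 1.58, 1.87 and 2.84 CPM in the EW8 vehicle libraries and 24.3, 23.1 and 23.2 CPM with doxycycline, and at 5.52, 6.43 and 5.26 CPM and 74.1, 70.5 and 72.2 CPM in TC71. The groups did not overlap in either line, and the log2 fold change was 3.47 (SE 0.15, edgeR adjusted p = 9.36e-13) in EW8 and 3.65 (SE 0.14, edgeR adjusted p = 1.10e-13) in TC71. The responses of the lines differed by 0.18 (SE 0.20, edgeR adjusted p = 0.595), which did not pass the test. ADAM9 (ENSG00000168615.11, chr8:38996869-39105144, plus strand), a widely expressed sheddase, was the most abundant member per exon length. It measured 79.1, 71.7 and 74.1 CPM and 266, 254 and 251 CPM in EW8, and 72.3, 82.6 and 91.9 CPM and 471, 469 and 452 CPM in TC71. All 6 doxycycline libraries were above all 6 vehicle libraries, with log2 fold changes of 1.78 (SE 0.07, edgeR adjusted p = 4.37e-13) and 2.50 (SE 0.07, edgeR adjusted p = 3.71e-15). The larger rise in TC71 passed the adjusted p without reaching the fold limit (difference 0.72, SE 0.10, edgeR adjusted p = 3.40e-05).

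ADAM12 and ADAM28 were called in EW8 from low counts. ADAM12 (ENSG00000148848.14, chr10:126012381-126388455, minus strand), which cleaves heparin-binding EGF and insulin-like growth factor binding proteins, had counts of 6, 0 and 8 with vehicle and 42, 20 and 6 with doxycycline in EW8. In TC71 it had 46, 148 and 122 counts with vehicle and 113, 80 and 136 with doxycycline. The EW8 groups overlapped at 6 counts, the log2 fold change was 2.17 (SE 0.72, edgeR adjusted p = 0.0199), and the call was lost without EW8 vehicle replicate 2 (1.63) or EW8 doxycycline replicate 1 (1.53). TC71 was the line with more ADAM12, and its log2 fold change of 0.46 (edgeR adjusted p = 0.497) did not pass. ADAM28 (ENSG00000042980.12, chr8:24294040-24359018, plus strand), best known from lymphocytes, had 0, 0 and 0 counts with vehicle and 12, 18 and 20 with doxycycline in EW8, and at most 6 counts in every TC71 library. The mean of the EW8 doxycycline libraries was at least 2.75-fold higher (edgeR adjusted p = 0.00140), and no fold is given for TC71, where both groups were at the floor.

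The main constitutive sheddases changed less. ADAM10 (ENSG00000137845.14, chr15:58588807-58749978, minus strand), which cuts Notch receptors and N-cadherin, was at 76.3, 71.0 and 80.1 CPM and 68.6, 71.1 and 70.2 CPM in EW8, and at 92.2, 87.0 and 90.1 CPM and 122, 117 and 125 CPM in TC71. The EW8 groups overlapped, and the TC71 groups did not, with log2 fold changes of -0.12 (SE 0.06, edgeR adjusted p = 0.130) and 0.44 (SE 0.06, edgeR adjusted p = 6.65e-06). ADAM15 (ENSG00000143537.13, chr1:155050566-155062775, plus strand), which carries an integrin-binding motif, was at 59.1, 65.7 and 60.2 CPM and 72.5, 76.2 and 64.8 CPM in EW8, and at 37.2, 46.8 and 48.8 CPM and 70.0, 77.2 and 67.2 CPM in TC71. Its log2 fold changes were 0.21 (SE 0.09, edgeR adjusted p = 0.0802) and 0.69 (SE 0.09, edgeR adjusted p = 6.49e-06), and 4.65% of its exon bases are shared with DCST1. ADAM17, the protease that releases TNF and most EGF receptor ligands, was higher with doxycycline in every library of both lines, under the fold limit, with log2 fold changes of 0.80 (SE 0.08, edgeR adjusted p = 1.13e-07) and 0.96 (SE 0.08, edgeR adjusted p = 6.55e-09). Without TC71 vehicle replicate 2 its TC71 value was 1.01 and passed the limit, and 13.6% of its exon bases are shared with opposite-strand genes, which the counting did not separate. ADAM8, an inducible protease of myeloid cells, was at most 0.868 CPM in any library, with log2 fold changes of 0.98 and 0.12 (edgeR adjusted p = 0.313 and 0.930).

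**Figure D3:**
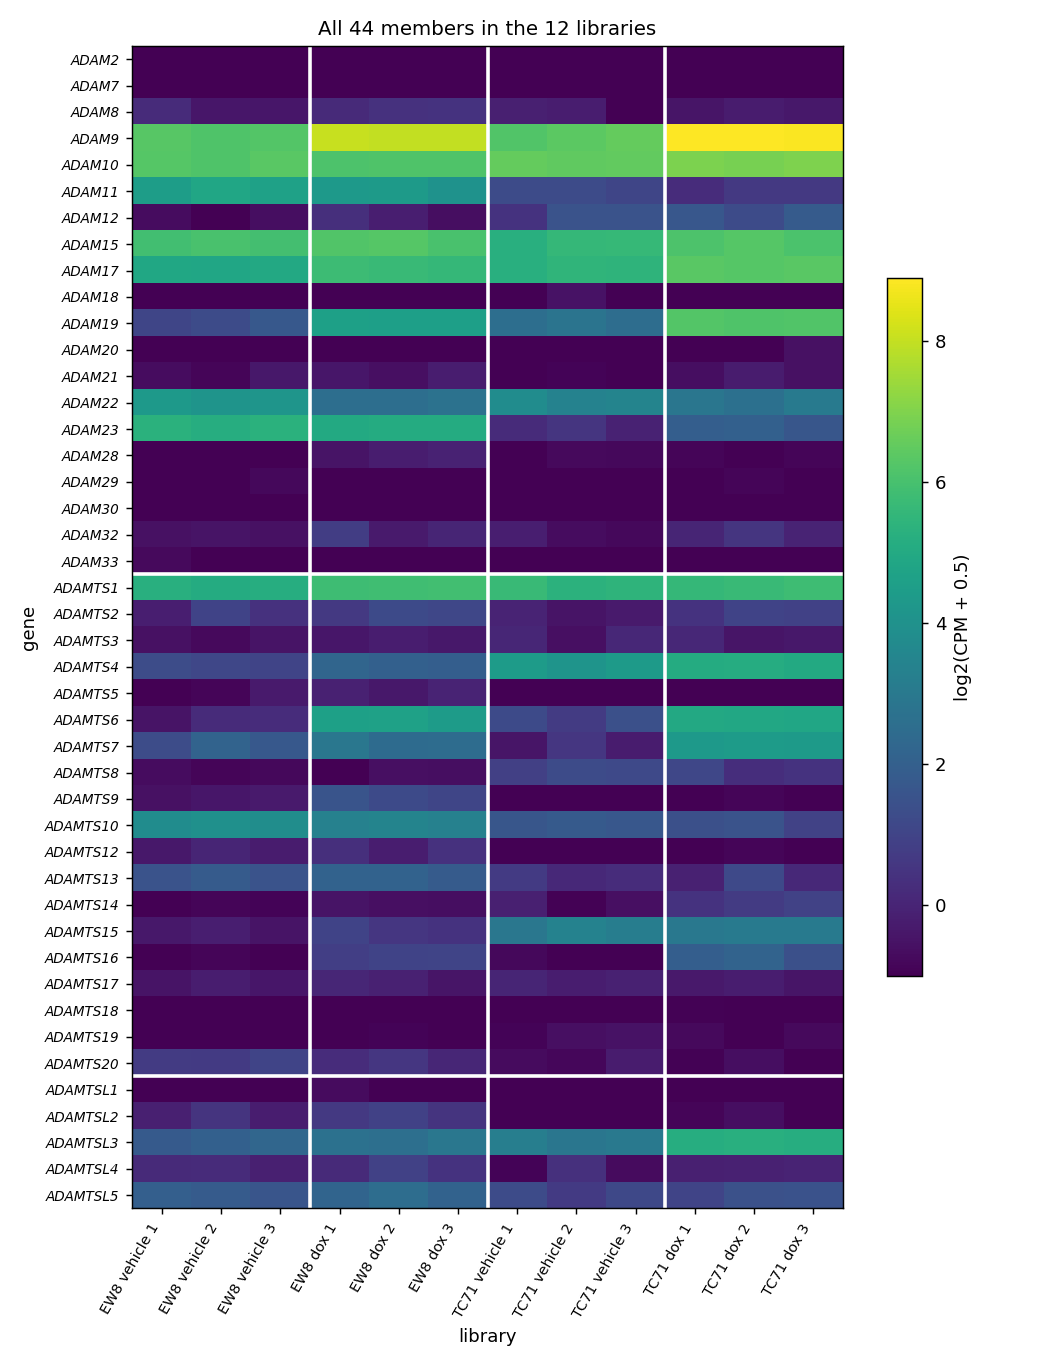
Heat map of all 44 members (rows, by family) in the 12 libraries (columns, by line and treatment; dox, doxycycline), colored by log2 of CPM plus a pseudocount of 0.5. ADAM9, ADAM10, ADAM15 and ADAM17 are high in all libraries, and ADAMTS12, ADAMTS9, ADAMTS5 and ADAMTSL2 are at or near 0 in TC71.

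Of the ADAM members without a catalytic site, ADAM22 and ADAM23, synaptic receptors for the secreted protein LGI1, were called in opposite directions, ADAM22 lower in EW8 and ADAM23 higher in TC71. ADAM22 (ENSG00000008277.14, chr7:87934143-88202889, plus strand) was at 19.2, 16.8 and 17.4 CPM with vehicle and 5.50, 5.49 and 6.03 CPM with doxycycline in EW8, and at 13.6, 9.86 and 10.4 CPM and 6.86, 5.74 and 7.60 CPM in TC71. It fell in both lines with no overlap of the groups, with log2 fold changes of -1.65 (SE 0.15, edgeR adjusted p = 3.21e-08) and -0.74 (SE 0.14, edgeR adjusted p = 3.24e-04), and the TC71 change did not reach the fold limit. ADAM23 (ENSG00000114948.12, chr2:206443539-206621130, plus strand) was at 38.8, 35.2 and 39.4 CPM and 31.3, 33.6 and 33.1 CPM in EW8, and at 0.649, 0.934 and 0.466 CPM and 3.39, 3.54 and 2.59 CPM in TC71. It rose in TC71 (log2 fold change 2.19, SE 0.19, edgeR adjusted p = 2.19e-08) and did not pass in EW8 (log2 fold change -0.21, edgeR adjusted p = 0.195). Even so, the TC71 doxycycline libraries stayed below every EW8 library. ADAM11, the third brain-enriched member of the group, had log2 fold changes of -0.44 and -0.94 (edgeR adjusted p = 0.0152 and 7.71e-04), both lower and under the fold limit. The TC71 value of ADAM11 passed the limit without TC71 vehicle replicate 3 (-1.05), TC71 doxycycline replicate 2 (-1.05) or replicate 3 (-1.03).

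ADAM21 and ADAM32 are known from testis and sperm. ADAM21 (ENSG00000139985.6, chr14:70452157-70459899, plus strand) had counts of 0, 2 and 0 with vehicle and 6, 14 and 8 with doxycycline in TC71, at least 2.02-fold higher (edgeR adjusted p = 0.00625). In EW8 its counts were 6, 2 and 16 and 14, 8 and 16, and the groups overlapped. ADAM32 (ENSG00000197140.14, chr8:39106990-39284911, plus strand) starts 1845 bases past the end of ADAM9 on the same strand. It had 8, 10 and 10 counts with vehicle and 70, 16 and 23 with doxycycline in EW8, and 20, 8 and 4 and 21, 40 and 22 in TC71. In both lines the doxycycline libraries were above the vehicle libraries in CPM, with log2 fold changes of 1.85 (SE 0.66, edgeR adjusted p = 0.0306) and 1.73 (SE 0.66, edgeR adjusted p = 0.0402). The EW8 call was lost without any 1 of the EW8 vehicle libraries (1.81, 1.95 and 1.84) or EW8 doxycycline replicate 1 (1.16). The TC71 call was lost without TC71 vehicle replicate 2 (1.50) or replicate 3 (1.33), TC71 doxycycline replicate 2 (1.36), EW8 vehicle replicate 3 (1.69) or EW8 doxycycline replicate 3 (1.69), and with library size alone as scaling (1.63).

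Among the secreted proteases, ADAMTS6 and ADAMTS16 rose steeply in both lines. ADAMTS6 (ENSG00000049192.14, chr5:65148736-65481920, minus strand), a relative of ADAMTS10 associated with fibrillin microfibrils, was at 0.226, 0.654 and 0.701 CPM with vehicle and 23.7, 24.9 and 21.0 CPM with doxycycline in EW8, and at 1.85, 1.13 and 2.13 CPM and 30.3, 29.6 and 28.3 CPM in TC71. The lowest doxycycline library was far above the highest vehicle library in each line, and the log2 fold change was 5.43 (SE 0.25, edgeR adjusted p = 2.80e-12) in EW8 and 4.12 (SE 0.21, edgeR adjusted p = 1.37e-11) in TC71. ADAMTS10, its closest paralog, went the other way, with log2 fold changes of -0.51 (SE 0.15, edgeR adjusted p = 0.0119) and -0.48 (SE 0.18, edgeR adjusted p = 0.0338), both under the fold limit. ADAMTS16 (ENSG00000145536.15, chr5:5140330-5320304, plus strand), a less studied protease, had 0, 2 and 0 counts with vehicle and 72, 76 and 68 with doxycycline in EW8, and 4, 0 and 0 and 141, 166 and 94 in TC71. It went from the floor to clear detection in both lines, with bounds of at least 11.6-fold in EW8 and 29.1-fold in TC71 (edgeR adjusted p = 1.79e-06 and 1.46e-07).

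The sequences just upstream of ADAM19 and ADAMTS6 are shown because these members rose in both lines with large counts and their promoters were in the RefSeq table used (build GRCh38.p14). Each runs from 250 bases before the annotated transcription start to the start itself, 5′ to 3′ on the gene's strand. They were searched on both strands for an AP-1 site (TGACTCA), a CRE-type site (TGACGTCA), 3 directly joined copies of GGAA, the kind of repeat EWS-FLI1 binds, and an ETS core (CCGGAAGT), none of which is contained in another. Capitals mark a match.
ADAM19 promoter, chr5:157575775-157576025, minus strand: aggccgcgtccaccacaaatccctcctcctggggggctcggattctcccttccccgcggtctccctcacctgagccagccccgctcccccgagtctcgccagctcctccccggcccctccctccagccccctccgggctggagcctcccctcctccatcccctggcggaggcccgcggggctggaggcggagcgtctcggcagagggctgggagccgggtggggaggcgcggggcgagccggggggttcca
ADAMTS6 promoter, chr5:65481920-65482170, minus strand: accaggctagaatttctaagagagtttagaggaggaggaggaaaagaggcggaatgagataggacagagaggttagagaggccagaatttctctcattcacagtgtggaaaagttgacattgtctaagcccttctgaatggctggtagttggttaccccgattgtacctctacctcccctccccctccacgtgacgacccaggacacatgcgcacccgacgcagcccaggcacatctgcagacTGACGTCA
The ADAMTS6 window held a CRE-type site that begins 7 bases before the start, and the ADAM19 window held none of the 4 motifs. The table had 300-base windows, from 250 bases before to 50 after the start, for 29 of the 44 members. Only 10 of the 17 members called higher in at least 1 line were among them. ADAM9, ADAM28, ADAM32, ADAMTS4, ADAMTS9, ADAMTS15 and ADAMTS16 were called higher but had no window. The CRE-type site was in 1 of these 29 windows, that of ADAMTS6, and in 1.98% of all 27305 windows. The AP-1 site was in 0 of 29 and in 4.92% of all windows, the GGAA repeat in 0 of 29 and in 0.0623%, and the ETS core in 0 of 29 and in 4.44%. The members' windows had a median GC content of 72%, against 58.3% over all windows. A match is a description of these letters only, and sites farther from the start were not searched.

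Of the proteoglycanases, ADAMTS enzymes that cut aggrecan and versican, ADAMTS4, ADAMTS9 and ADAMTS15 were called higher in EW8. ADAMTS4 (ENSG00000158859.9, chr1:161184308-161199056, minus strand), an aggrecanase, was at 1.96, 1.66 and 1.53 CPM and 4.12, 3.56 and 3.38 CPM in EW8, and at 21.1, 16.9 and 20.2 CPM and 33.7, 34.7 and 31.6 CPM in TC71. Doxycycline libraries were higher in both lines, with log2 fold changes of 1.11 (SE 0.15, edgeR adjusted p = 5.07e-06) and 0.78 (SE 0.12, edgeR adjusted p = 1.86e-05), so that the TC71 change passed the adjusted p but not the fold limit. The difference between the lines, -0.33 (SE 0.19, edgeR adjusted p = 0.245), did not pass the test. ADAMTS9 (ENSG00000163638.13, chr3:64515654-64688000, minus strand) had 8, 12 and 18 counts and 138, 94 and 69 counts in EW8 (log2 fold change 2.93, SE 0.54, edgeR adjusted p = 3.38e-04), and at most 2 counts in any TC71 library. ADAMTS15 (ENSG00000166106.3, chr11:130448974-130476641, plus strand) was at 0.271, 0.392 and 0.216 CPM and 1.47, 0.988 and 0.868 CPM in EW8, and at 7.10, 9.90 and 8.71 CPM and 7.22, 7.69 and 7.92 CPM in TC71. It rose in EW8 (log2 fold change 1.94, SE 0.29, edgeR adjusted p = 2.39e-05), while the TC71 libraries overlapped at a level above all EW8 libraries (log2 fold change -0.17, edgeR adjusted p = 0.519).

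ADAMTS1 (ENSG00000154734.14, chr21:26835747-26845409, minus strand), also a proteoglycanase, was the most abundant ADAMTS member per exon length. It was at 37.6, 33.6 and 34.7 CPM and 56.2, 56.8 and 58.5 CPM in EW8, and at 51.8, 40.3 and 42.6 CPM and 47.1, 51.0 and 55.4 CPM in TC71. It rose in EW8 under the fold limit (log2 fold change 0.69, SE 0.09, edgeR adjusted p = 4.62e-06) and did not pass in TC71 (log2 fold change 0.19, edgeR adjusted p = 0.0949). ADAMTS5, the other major aggrecanase, lies 72502 bases from ADAMTS1 and was nearly silent. In EW8 it had 0, 2 and 18 counts in the vehicle libraries and 25, 14 and 22 in the doxycycline libraries, and 0 in all TC71 libraries. The EW8 groups overlapped through vehicle replicate 3, and without that library the log2 fold change went from 1.67 to 4.10 and passed the test. ADAMTS8 and ADAMTS20 were not called in either line, with log2 fold changes of 0.20 and -0.76 in EW8 and -0.63 and -1.60 in TC71. Without TC71 doxycycline replicate 2, ADAMTS20 was called lower in TC71 (-3.62).

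Among the procollagen N-proteinases, which trim the amino end of fibrillar procollagens, ADAMTS14 was called higher in both lines and ADAMTS2 in TC71. ADAMTS14 (ENSG00000138316.10, chr10:70672803-70762441, plus strand) had 0, 2 and 2 counts with vehicle and 12, 8 and 6 with doxycycline in EW8, and 22, 1 and 8 and 36, 48 and 64 in TC71. The EW8 rise was at least 1.36-fold (edgeR adjusted p = 0.0483), and the TC71 log2 fold change was 2.56 (SE 0.75, edgeR adjusted p = 0.00899). The EW8 call sat at the threshold and was lost in 12 of 19 alternatives, among them without any 1 of the 6 EW8 libraries or any 1 of the TC71 doxycycline libraries (2.05 to 2.97). ADAMTS2 (ENSG00000087116.15, chr5:179110851-179345430, minus strand), the main procollagen N-proteinase of skin, was at 0.383, 1.50 and 0.826 CPM and 1.04, 1.86 and 1.67 CPM in EW8, and at 0.496, 0.225 and 0.311 CPM and 0.873, 1.48 and 1.37 CPM in TC71. The TC71 groups did not overlap (log2 fold change 1.85, SE 0.48, edgeR adjusted p = 0.00397), and the EW8 groups did (log2 fold change 0.75, edgeR adjusted p = 0.200, and 1.31 and called without EW8 vehicle replicate 2). ADAMTS3 was at most 0.582 CPM in any library, with log2 fold changes of 0.85 and -0.22 (edgeR adjusted p = 0.341 and 0.825).

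ADAMTS7 (ENSG00000136378.14, chr15:78759203-78811431, minus strand), which binds and cuts cartilage oligomeric matrix protein, showed the largest difference in response between the lines among members with no group at the floor. It was at 1.94, 3.94 and 2.77 CPM and 7.03, 4.94 and 5.09 CPM in EW8, and at 0.229, 0.982 and 0.349 CPM and 19.9, 21.1 and 20.5 CPM in TC71. TC71 had less of it with vehicle and more with doxycycline. The log2 fold change was 5.24 (SE 0.35, edgeR adjusted p = 4.58e-10) in TC71 and 0.98 (SE 0.29, edgeR adjusted p = 0.00952) in EW8, just under the fold limit. The EW8 value passed the limit in other settings, among them without EW8 vehicle replicate 2 (1.27), EW8 doxycycline replicate 2 (1.12) or replicate 3 (1.10), or TC71 vehicle replicate 1 (1.03) or replicate 3 (1.03). Its paralog ADAMTS12 had at most 2 counts in every TC71 library, and its EW8 log2 fold change of 0.81 (edgeR adjusted p = 0.380) did not pass. ADAMTS13, the protease that cuts von Willebrand factor, was not called, with log2 fold changes of 0.44 and 0.23 (edgeR adjusted p = 0.364 and 0.691). ADAMTS17 was not called either, with 0.53 and -0.60 (edgeR adjusted p = 0.476 and 0.406).

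Of the ADAMTSL members, ADAMTSL3 rose in TC71. ADAMTSL3 (ENSG00000156218.12, chr15:83654086-84039842, plus strand), a secreted matrix glycoprotein also called punctin-2, was at 3.02, 3.53 and 4.35 CPM and 5.94, 5.65 and 6.99 CPM in EW8, and at 8.90, 6.78 and 7.51 CPM and 35.2, 37.5 and 35.4 CPM in TC71. Doxycycline libraries were above vehicle libraries in both lines, with log2 fold changes of 2.22 (SE 0.14, edgeR adjusted p = 1.92e-10) in TC71 and 0.76 (SE 0.15, edgeR adjusted p = 3.42e-04) in EW8, the latter under the fold limit. ADAMTSL2 (ENSG00000197859.9, chr9:133532164-133575519, plus strand), a binding partner of LTBP1, passed the test in TC71 (edgeR adjusted p = 0.0238) on 2, 6 and 0 counts in the doxycycline libraries, against 0 in all 3 vehicle libraries. With both TC71 groups at the floor no fold is given, and the call was lost without TC71 vehicle replicate 2 (4.66) or replicate 3 (4.66) or TC71 doxycycline replicate 2 (3.38), values of the fitted log2 fold change that are not bounds. In EW8 ADAMTSL2 was at 0.406, 0.915 and 0.359 CPM with vehicle and 1.04, 1.40 and 0.913 CPM with doxycycline (log2 fold change 1.00, edgeR adjusted p = 0.231). ADAMTSL5 (ENSG00000185761.10, chr19:1505018-1513604, minus strand), a fibrillin-binding member, was at 3.45, 3.05 and 2.55 CPM and 3.99, 5.34 and 3.79 CPM in EW8, and at 1.91, 1.10 and 1.69 CPM and 1.55, 2.25 and 2.32 CPM in TC71, and it was not called. ADAMTSL4 was not called either (log2 fold changes 0.73 and 0.42), although without TC71 vehicle replicate 2 its TC71 value was 2.47 and passed. Opposite-strand genes share 14.4% of the ADAMTSL4 exon bases.

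The other 10 members had too few counts to be tested. ADAM2, ADAM7 and ADAM30, genes of the reproductive tract, had 0 counts in all 12 libraries, which allows at most 3 read pairs per library. ADAM18, ADAM20, ADAM29, ADAM33, ADAMTS18, ADAMTS19 and ADAMTSL1 had between 1 and 12 counts in their highest library. At this depth a fall or a small rise in these genes was not detectable.

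Summed over the members of a family per exon length, the ADAM transcripts were the largest pool and grew with doxycycline in both lines. The ADAM sum was 40.7 ± 0.214 RPKM (SD, n = 3) with vehicle and 69.9 ± 2.30 with doxycycline in EW8, and 30.4 ± 2.40 and 104 ± 1.62 in TC71. ADAM9 alone was 26.7% of the EW8 sum with vehicle and 53.1% with doxycycline, and 39.1% and 64.5% in TC71. The ADAMTS sum was 9.02 ± 0.194 and 15.4 ± 0.322 RPKM in EW8, and 11.2 ± 0.819 and 19.7 ± 0.516 RPKM in TC71. ADAMTS1 made up 55.4% and 52.5% of it in EW8, and 56.5% with vehicle but 36.9% with doxycycline in TC71, where the shares of ADAMTS6 (1.77% to 17.5%) and ADAMTS7 (0.598% to 13.5%) grew and that of ADAMTS4 was 16.7% and 16.4%. For ADAMTSL the sums were 1.41 ± 0.111 and 2.23 ± 0.289 RPKM in EW8 and 1.27 ± 0.162 and 4.34 ± 0.228 RPKM in TC71, with ADAMTSL3 at 62.2% and 85.1% of the TC71 sum. In all 6 pairs of groups the lowest doxycycline library was above the highest vehicle library, and no test was made of a sum.

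**Figure D4:**
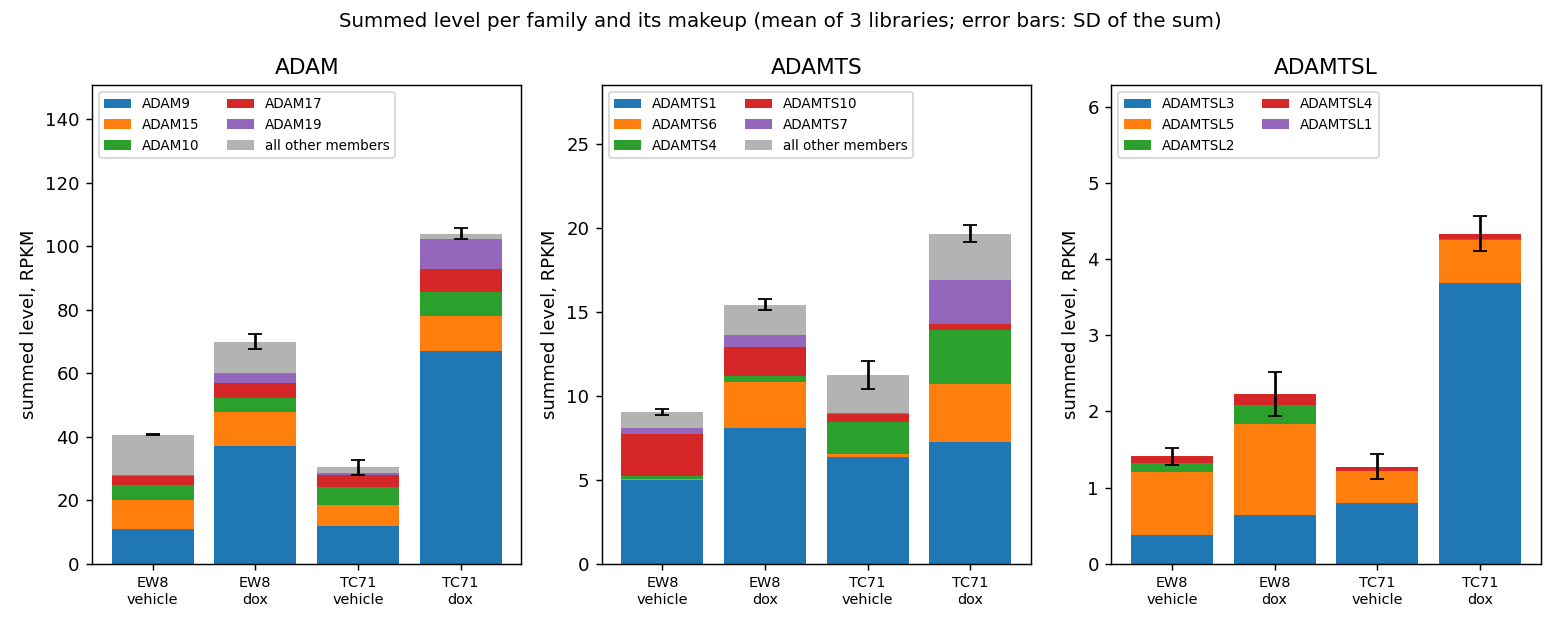
Summed RPKM of the ADAM, ADAMTS and ADAMTSL members in each group, as stacked shares of the leading members, with bars from 0 and error bars for the SD of the sum over 3 libraries. The ADAM sum reaches 104 RPKM in TC71 with doxycycline, most of it ADAM9, and the highest ADAMTSL sum is 4.34 RPKM, in the same group.

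The responses of the lines were compared directly as an interaction, TC71 minus EW8. Of the 34 members, 3 responded more in TC71 (4.18% of all genes tested) and 3 more in EW8 (2.87%). The larger TC71 responses were those of ADAMTS7 (difference 4.26, SE 0.45, edgeR adjusted p = 1.54e-06), ADAM23 (2.40, SE 0.23, edgeR adjusted p = 4.98e-07) and ADAMTSL3 (1.46, SE 0.20, edgeR adjusted p = 3.26e-05). The larger EW8 responses were those of ADAMTS15 (difference -2.11, SE 0.35, edgeR adjusted p = 2.70e-04) and ADAMTS6 (-1.31, SE 0.34, edgeR adjusted p = 0.00965), and of ADAM28, which passed the test (edgeR adjusted p = 0.0114) with 3 of its 4 groups at the floor. ADAMTS6 rose in both lines, from less in EW8, and its difference fell to -0.97 and under the limit without EW8 vehicle replicate 1. ADAM12 (difference -1.71, edgeR adjusted p = 0.203), ADAM21 (3.27, 0.113) and ADAMTS2 (1.11, 0.280) were called in 1 line, and their difference between the lines did not pass. The same held for ADAMTS9 (edgeR adjusted p = 0.680) and ADAMTSL2 (0.151), whose TC71 groups were both at the floor. Without TC71 vehicle replicate 1 the ADAM12 difference was -2.18 and passed.

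With vehicle alone, 21 of the 34 members were called between the lines, 9 higher in TC71 (11.6% of all genes tested) and 12 lower (18.9%). Higher in TC71 were ADAM12 (log2 fold change 4.27), ADAM19 (1.43), ADAMTS4 (3.51), ADAMTS6 (1.65), ADAMTS15 (4.88), ADAMTSL3 (1.08), ADAMTS8 (at least 13.3-fold), ADAMTS14 (at least 1.58-fold) and ADAM28, which is not read as a difference because both vehicle groups were at the floor, at 0, 0 and 0 counts in EW8 and 0, 6 and 4 in TC71. Higher in EW8 were ADAM23 (log2 fold change -5.76), ADAM11 (-3.81), ADAMTS20 (-2.84), ADAMTS7 (-2.42), ADAMTS10 (-2.35), ADAMTS13 (-1.72) and ADAMTS2 (-1.40). The other 5 were at the floor in TC71, which was lower by at least 5.13-fold for ADAMTSL2, 3.46-fold for ADAMTS12, 2.34-fold for ADAMTS9, 1.42-fold for ADAM21 and 1.12-fold for ADAMTS5. Some neighboring genes shared this pattern and others did not. ADAMTS8 and ADAMTS15, 19980 bases apart on chromosome 11, were both higher in TC71, while ADAM9 and ADAM32 on chromosome 8 differed by 0.13 and 0.02 and were not called. Calls lost without 1 library were those of ADAM28, lost without EW8 vehicle replicate 1, 2 or 3 or TC71 vehicle replicate 2 or 3, of ADAMTS14, lost without EW8 vehicle replicate 1 (2.22) or TC71 vehicle replicate 1 (1.62), of ADAM21, lost without EW8 vehicle replicate 3 (-2.65) or TC71 vehicle replicate 1 (-2.92), of ADAMTS2, lost without EW8 vehicle replicate 2 (-0.83) or TC71 vehicle replicate 2 (-1.16), of ADAMTS5, lost without EW8 vehicle replicate 3 (-3.24), and of ADAMTSL3, lost without EW8 vehicle replicate 1 (0.96). Calls gained without 1 library were those of ADAMTSL4 (-2.85) and ADAMTS3 (1.77) without TC71 vehicle replicate 2, and of ADAMTSL5 without EW8 vehicle replicate 3 (-1.03) or TC71 vehicle replicate 1 (-1.01).

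A list of 76 genes that inhibit, mature or are cut by these proteases, or bind ADAMTSL proteins, was read beside them, and 70 were tested. In EW8, 28 were called higher and 0 lower, against 11.4% and 3.38% of all genes tested. In TC71, 38 were called higher and 4 lower, against 12.3% and 3.67%. The median log2 fold change of the 70 was 0.58 in EW8 and 1.70 in TC71, from fitted values that include genes with a group at the floor. In EW8, where edgeR called 0 lower, 12 were lower at an unadjusted p under 0.05 and DESeq2 called 1.

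Inhibitors were mixed. Of 6 tested, 2 were called higher in EW8, against 11.4% of all genes. In TC71, 2 were called higher and 1 lower, against 12.3% and 3.67%. TIMP1, a broad metalloproteinase inhibitor, was at 576, 574 and 561 CPM and 1884, 1833 and 1848 CPM in EW8, and at 571, 733 and 748 CPM and 1317, 1289 and 1262 CPM in TC71. It rose in both lines, by 1.70 (SE 0.07, edgeR adjusted p = 1.28e-12) in EW8 and by 0.91 (SE 0.07, edgeR adjusted p = 6.05e-09) in TC71, the latter under the fold limit. TIMP2 passed the fold limit in TC71 alone (log2 fold changes 0.33 in EW8 and 2.94 in TC71, difference 2.60, SE 0.16, edgeR adjusted p = 2.65e-09), and TIMP4 in EW8 alone (2.93 and -0.30, difference -3.23, SE 0.32, edgeR adjusted p = 8.45e-07). TIMP3, the matrix-bound inhibitor of ADAM17 and the aggrecanases, was at 726, 706 and 732 CPM and 509, 485 and 524 CPM in EW8, and at 75.2, 98.5 and 106 CPM and 58.6, 52.2 and 55.3 CPM in TC71, lower with doxycycline in both lines under the fold limit. TIMP3 was named after its values were seen, for its known role.

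Of 14 genes of maturation and trafficking, 5 were called higher in EW8, against 11.4% of all genes. In TC71, 6 were called higher and 1 lower, against 12.3% and 3.67%. The lower call was PCSK5, with 20, 12 and 2 counts under vehicle and 0, 3 and 4 with doxycycline, where the groups overlapped. FURIN, the convertase that removes the inhibitory prodomain of most ADAM and ADAMTS proteins, was at 117, 128 and 134 CPM and 574, 555 and 513 CPM in EW8, and at 132, 142 and 143 CPM and 697, 739 and 645 CPM in TC71. It rose in both lines, with log2 fold changes of 2.11 (SE 0.07, edgeR adjusted p = 1.42e-14) and 2.32 (SE 0.07, edgeR adjusted p = 3.29e-15) and a difference of 0.20 (SE 0.09, edgeR adjusted p = 0.135). RHBDF1, an inactive rhomboid that carries ADAM17 through the secretory pathway, rose by 1.47 and 2.09 on the log2 scale. TSPAN10, a tetraspanin of the group that escorts ADAM10, rose by 2.67 and 3.48, in EW8 from a mean of 0.664 to 4.27 CPM. In the same group, TSPAN5, TSPAN15 and TSPAN17 had log2 fold changes of 0.52, 0.56 and 0.53 in EW8 and 0.23, 1.28 and 0.87 in TC71. TSPAN14 (-0.69 in EW8 and 0.22 in TC71) and TSPAN33 (-0.68 and 0.14) fell in EW8, under the fold limit. Of the 4 genes that glycosylate thrombospondin repeats, edgeR and DESeq2 called 0 in either line, while at an unadjusted p under 0.05 in edgeR 1 was higher and 1 lower in EW8 and 2 were higher in TC71.

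Of 6 tested EGF-family ligands shed by ADAM proteins, 5 were called higher in each line, against 11.4% of all genes in EW8 and 12.3% in TC71. NRG1 was not called (log2 fold changes 0.01 in EW8 and -0.14 in TC71). BTC, EREG and AREG went from the floor or near it. AREG was at 0.361, 0 and 0.287 CPM and 6.16, 5.73 and 3.61 CPM in EW8 (log2 fold change 4.55), and rose at least 62.8-fold in TC71. EREG rose at least 34.9-fold in EW8 and 4.07-fold in TC71, and BTC at least 1.92-fold and 13.7-fold. Of 19 other shed proteins, 9 were called higher in EW8 and 11 in TC71, against the same shares of all genes. At an unadjusted p under 0.05 in edgeR, 2 were lower in each line. NOTCH1 fell in both lines (log2 fold changes -0.84 and -0.73), under the fold limit. JAG1, called higher in EW8 (1.46), fell in TC71 (-0.50), also under the limit. NOTCH1 and JAG1 were named after their values were seen. CD44, the hyaluronan receptor, was at 0, 0 and 0 counts in EW8 with vehicle and at 11.2, 10.4 and 11.2 CPM with doxycycline, at least 87.8-fold higher. In TC71 it had 0, 8 and 0 counts with vehicle and 42.3, 38.7 and 38.5 CPM with doxycycline, and no fold is given because the vehicle level rests on 1 library. IL6R, the interleukin 6 receptor, rose by 6.37 and 7.36 on the log2 scale, and MET, the receptor of hepatocyte growth factor, by 4.97 and 4.52.

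Of 17 matrix substrates of ADAMTS proteins, 4 were called higher in EW8, against 11.4% of all genes. In TC71, 10 were called higher and 2 lower, against 12.3% and 3.67%. The median log2 fold change of the 17 was -0.27 in EW8 and 2.85 in TC71, fitted values of genes with few counts. In EW8 it was that of BCAN, whose groups overlapped. In TC71 it was that of VCAN, at 4, 2 and 2 counts with vehicle and 13, 6 and 28 with doxycycline, at least 3.34-fold higher. Among the genes called higher in TC71, VCAN, BCAN, COL1A2, COMP and VWF had their vehicle group at the floor. The TC71 groups of BCAN and COMP overlapped. In EW8, 5 rose and 5 fell at an unadjusted p below 0.05 in edgeR. The 2 called lower in TC71 were COL2A1 (-1.94) and DCN (-1.73). BGN fell in EW8 (-0.59) under the fold limit. COL3A1 (-0.46 in EW8 and -0.29 in TC71) and FBLN1 (-0.43 and -0.41) fell in both lines, also under the limit. These falling genes were named after their values were seen. VWF, the substrate of ADAMTS13, went from the floor to 3.58, 2.49 and 1.51 CPM in EW8 and 0.242, 0.287 and 0.364 CPM in TC71, at least 20.3-fold and 2.73-fold higher. ACAN, the aggrecan core protein, had 0, 0 and 0 counts with vehicle and 36, 22 and 18 with doxycycline in EW8, at least 3.99-fold higher, and was at the floor in TC71. TFPI2, a protease inhibitor of the matrix, rose by 5.89 and 4.36 on the log2 scale. Of 4 tested partners and relatives of ADAMTSL proteins, 3 were called higher in EW8 and all 4 in TC71. THSD4, which encodes ADAMTSL6, was at 1.94, 1.66 and 2.05 CPM and 8.75, 8.95 and 7.99 CPM in EW8, and at 0.229, 0.483 and 0.233 CPM and 20.2, 18.4 and 19.9 CPM in TC71. It rose more in TC71 (difference 3.72, SE 0.28, edgeR adjusted p = 2.88e-08), as did the latent TGF-beta binding proteins LTBP2 (difference 2.10, edgeR adjusted p = 3.19e-04) and LTBP1 (1.07, 4.18e-06).

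**Figure D5:**
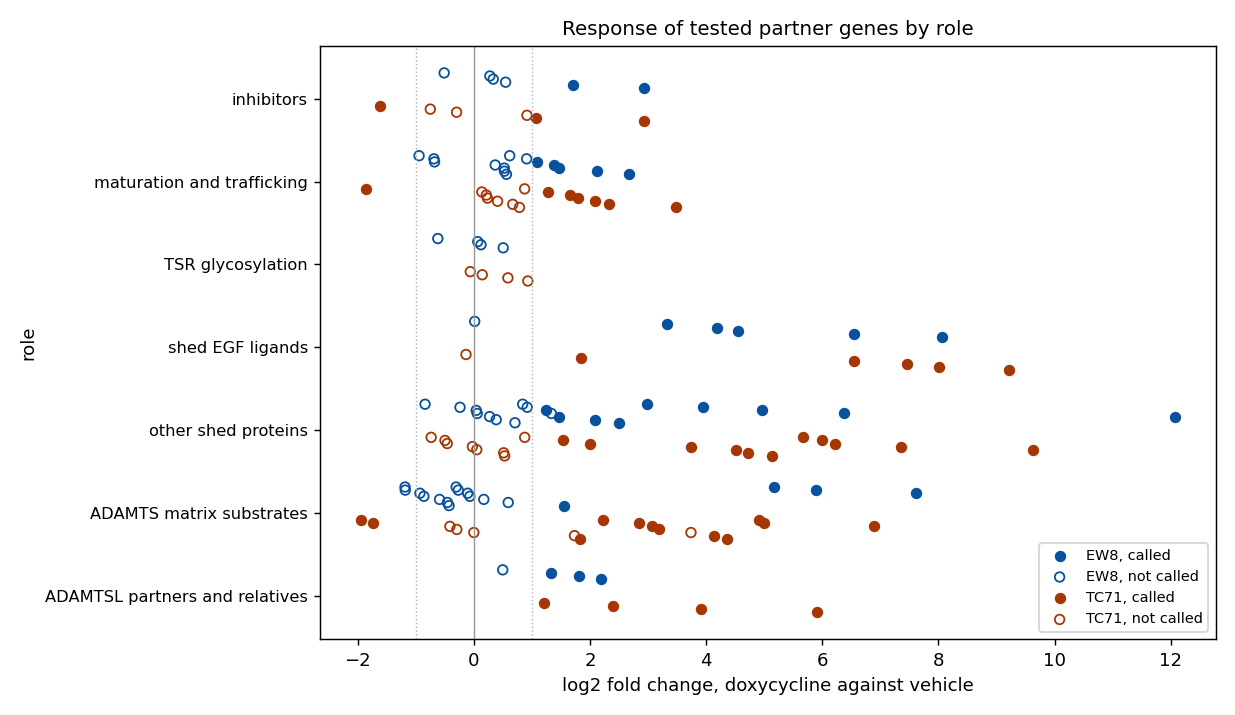
Log2 fold change with doxycycline (horizontal) of the 70 tested genes that inhibit, mature, are cut by or bind ADAM, ADAMTS and ADAMTSL proteins, by role (rows; TSR, thrombospondin type 1 repeat), with 1 point per gene and line, filled where called, and dotted lines at the fold limit. EGF-family ligands lie mostly above the fold limit in both lines, and matrix substrates spread from below 0 to high values. The genes that glycosylate thrombospondin repeats stay within the limit.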

How the data were processed

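Polyadenylated RNA was sequenced in 12 stranded libraries. Read quality was checked by the authors with FastQC, and reads were aligned with STAR to hg38 and counted by the authors over GENCODE release 29 exons with featureCounts 2.0.1. The deposited table held raw counts for each gene without normalization, and its deposited exon length in base pairs (unit: other) gave RPKM. Per the file headers, featureCounts ran with no setting for strand, read pairs, overlaps or multi-mapping, so each mate was counted, strand was not used, and reads from close paralogs or from bases shared by genes were left out. Counts of such members are uncertain.

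Gene identifiers were matched to symbols for 58207 of 58721 genes (99.1%). Libraries were scaled by TMM, genes were filtered with filterByExpr (99.95% of counts kept), and all 12 libraries entered 1 quasi-likelihood fit in edgeR 4.0.16 (R 4.3.3) with the 4 groups as levels, common dispersion 0.0143 and prior degrees of freedom 9.37. The Benjamini-Hochberg adjustment covered all 21013 tested genes. The call limits are those of the study, which used DESeq2. DESeq2 1.42.0, other scalings and filters, no fold limit, separate fits per line, a replicate block and leaving out each library were run as alternatives, as were read pairs and a count filter on the vehicle libraries alone, both added after the values were seen. In data simulated for the EW8 comparison, 20218 genes were run, with 3 false calls. Of 100 genes changed by log2 2, 95% were recovered, and of 100 changed by log2 3, 98%. The changed genes were drawn only from those above a limit on the mean count, so these rates do not cover members with few counts. SE is the fitted log2 fold change divided by the square root of its F statistic.

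Members called in at least 1 line and the 3 members per family with the highest RPKM are given in every library, other members by fold change or range, and up to 3 called partner genes per role, those with the largest mean change. The members, the partner and marker lists and the roles were chosen with earlier results of these data known, and roles come from general knowledge. Replicates are libraries the labels number within a group. Whether they came from separate cultures was not stated, so p-values measure the spread between these libraries, which may be technical. Promoter windows are from RefSeq.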

Additional observations from a re-analysis of the deposited data

Results flagged for a closer look

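The response to doxycycline differed between EW8 and TC71 in the interaction test for 6 of the 34 tested members, given as the TC71 log2 fold change minus the EW8 log2 fold change. ADAMTS7 differed by 4.26 (SE 0.45, edgeR adjusted p = 1.54e-06), with all 3 TC71 doxycycline libraries above every EW8 library although TC71 started lower. ADAM23 differed by 2.40 (SE 0.23, edgeR adjusted p = 4.98e-07) and was lower in every TC71 library than in any EW8 library. ADAMTSL3 differed by 1.46 (SE 0.20, edgeR adjusted p = 3.26e-05). ADAMTS15 differed by -2.11 (SE 0.35, edgeR adjusted p = 2.70e-04), where the TC71 vehicle libraries were already above all EW8 libraries. ADAMTS6 differed by -1.31 (SE 0.34, edgeR adjusted p = 0.00965), and by -0.97 without EW8 vehicle replicate 1, which is under the fold limit. ADAM28 differed by -7.93 (SE 2.04, edgeR adjusted p = 0.0114) in the fit, a value that depends on how counts of 0 are treated and is no bound, since 3 of its 4 groups were at or under 6 counts. No group had the 4 libraries needed to look for a library far from the others.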

How the results depend on the processing

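The calls of JUN, FOS, ADAM9, ADAM19, ADAM22 in EW8, ADAM23 in TC71, ADAMTS6, ADAMTS7 in TC71, ADAMTS15 in EW8 and ADAMTSL3 in TC71 with doxycycline held under every alternative run, as did ADAMTS16 except that it was not tested with at least 10 counts required in every library or with the filter set on the vehicle libraries. With library size alone as scaling, 1 member was called lower in TC71 (ADAM11, -1.03) and 1 partner gene lower in EW8, and ADAM32 in TC71 (1.63, edgeR adjusted p = 0.0517) and ADAMTS14 in EW8 (2.49, edgeR adjusted p = 0.0523) lost their call. Without the filter on low counts, the ADAM median in EW8 was 0.20, the ADAMTSL median in TC71 0.40, and 1 partner gene was called lower in EW8. With at least 10 counts required in every library, 19 members remained to be tested, which removed members at or near 0 in a group: 6 were called higher in EW8 and 7 in TC71, 3 ADAM members in each line, 3 ADAMTS members and 1 ADAMTSL member in TC71, the ADAM median in EW8 was 0.11, 1 partner gene was called lower in TC71, and under vehicle 5 members were higher and 6 lower in TC71. DESeq2 called 1 partner gene lower in EW8. With no fold limit, 3 members were lower in each line, and 1 ADAMTSL member was called in EW8 and 10 ADAM members in TC71. In that setting, 10 partner genes were lower in EW8 and 9 in TC71. In the interaction, 7 members had a higher log2 fold change in TC71, among them ADAM22, which fell less there than in EW8. With only the libraries of the line fitted, 1 ADAMTSL member was called in each line, the ADAMTSL median in TC71 was 0.43 and 2 partner genes were lower in TC71. With counts halved to read pairs, an alternative chosen after seeing the data, 1 ADAMTSL member was called in TC71, and ADAMTS14 in EW8 and ADAMTSL2 in TC71 lost their call. With the count filter set on the vehicle libraries alone, also chosen after seeing the data, 7 members were called higher in EW8, 3 ADAM and 3 ADAMTS members were called in TC71, and the ADAM median in EW8 was 0.57. The cause of these shifts was not tested beyond the smaller number of genes tested.

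Leaving out each library in turn gave 8 to 12 members higher and 1 lower in EW8, and 10 to 12 higher and 0 to 2 lower in TC71. In the interaction, 3 to 4 members had a higher log2 fold change in TC71 and 2 to 4 a higher one in EW8. Under vehicle, 6 to 9 were higher and 11 to 12 lower in TC71. By family the calls were 4 to 6 for ADAM in each line, 5 to 7 in EW8 and 5 to 6 in TC71 for ADAMTS, and 0 in EW8 and 1 to 2 in TC71 for ADAMTSL. The medians ran from 0.77 to 1.12 for ADAMTS in EW8, 0 to 0.57 for ADAMTS in TC71 and 1.26 to 2.30 for ADAMTSL in TC71, and partner genes called lower from 0 to 1 in EW8. With the replicate number as a block, ADAM32 (1.69) and ADAMTS14 (2.50) lost their EW8 call, ADAMTS7 gained one in EW8 (1.03), and ADAM28 (4.54) and ADAMTS14 (2.54) lost their call under vehicle. Same-numbered libraries of a line correlated at -0.0282 to 0.00977 in their deviations from the group means over all tested genes. No pairing was seen at that scale, and the block was not used. Such correlations cannot exclude an effect shared by some of the genes, and the labels state no pairing.

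Precision was limited by counts: 10 members were not testable, and bounds against 6 counts cover counting error only. Over members and alternatives, 2650 values kept their direction and side of the threshold, 45 lost and 50 gained a call, and 65 uncalled values changed sign.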

Other observations

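Chromosomal neighbors among the members did not always share their values. ADAMTS13 and ADAMTSL2, 72761 bases apart on chromosome 9, were both lower in TC71 than in EW8 under vehicle, with ADAMTSL2 at 0 counts in all 3 TC71 vehicle libraries and ADAMTS13 at 0.596 to 1.11 CPM. ADAMTS1 and ADAMTS5 on chromosome 21 lie 72502 bases apart, and ADAMTS1 was at 40.3 to 51.8 CPM in the TC71 vehicle libraries where ADAMTS5 had 0 counts. ADAM21 was detected in EW8 while ADAM20, 62458 bases away on chromosome 14, had at most 8 counts in any library.

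The inactive rhomboids, which carry ADAM17 to the cell surface, responded by different amounts in the lines. RHBDF2 had a log2 fold change of 1.39 in EW8 and 0.78 in TC71, with a difference of -0.60 that passed the adjusted p (0.0244 in edgeR) without reaching the fold limit, and RHBDF1 had a difference of 0.63 (edgeR adjusted p = 0.0205). These genes were looked at after their values were known.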
